A study of Mus musculus with 18 samples.

Results

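Long intergenic noncoding RNAs (lincRNAs) other than the few well-known ones were followed through the gradient fractions of mouse embryonic stem cells (ESCs). The members were chosen by their counts: lincRNA genes of the GENCODE annotation that reached a level of 3 CPM, counts scaled by library size, in 3 or more of 18 libraries, without 15 such genes that are widely studied or carry small nucleolar or micro RNAs, such as Malat1, Gas5 and the Snhg genes. This left 207 members, out of 222 lincRNA genes and 12851 genes of all kinds that passed the same limit. The table held 4794 lincRNA genes. Since the limit itself used the counts, the levels of the members are given as a description.

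Polysome profiling was done in wild type (WT) and Dgcr8 knockout (KO) V6.5 ESCs, which were grown with serum, LIF and 2i, a pair of kinase inhibitors that hold the naive state. All cultures received cycloheximide, which holds ribosomes on the RNA, and the lysates were spun through sucrose gradients. From each of 6 gradients, 3 per genotype, a monosome, a low polysome (2 to 4 ribosomes) and a high polysome (4 or more ribosomes) fraction was sequenced from the 3′ ends of polyadenylated RNA, which gave 6 groups of 3 libraries. The sources used here state neither how many clones the KO line represents nor whether the gradients of a genotype came from separate cultures, so p-values measure only the spread between these gradients.

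LincRNAs are transcribed by RNA polymerase II, and most are spliced and polyadenylated like mRNAs but hold no long reading frame. Some act in the nucleus on nearby genes, others bind proteins or microRNAs (miRNAs) in the cytoplasm, and some turn out to encode short peptides. DGCR8 is the RNA-binding partner of DROSHA, which cuts the hairpins of miRNAs out of primary transcripts, several of which are annotated as lincRNAs. In ESCs the main miRNAs are those of the miR-290 and miR-302 clusters. In a gradient, RNA in the polysome fractions travels with several ribosomes, and RNA in the monosome fraction travels with particles of about the size of a single ribosome, which need not be a translating ribosome. The high polysome to monosome ratio, the translation level, is therefore read here only as a position in the gradient.

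The sequences that tie members to miRNAs are shown first. GENCODE places 3 miRNA genes in 6720427I07Rik, at chr13:48532905-48546500 on the minus strand (GRCm38), and 1 each in E130102H24Rik, at chr4:101346531-101356735 on the minus strand, in 2900076A07Rik, at chr7:81523550-81531498 on the plus strand, and in 4631405K08Rik, at chr1:193507238-193510174 on the minus strand. Their mature sequences from RefSeq (GRCm38.p6) have the seed, bases 2 to 8, in capitals. The 3 from 6720427I07Rik share a single seed, and the other 3 each have their own. miR-7a and miR-294 are not encoded in a member, and are shown because their sites lie in members described below.
let-7a-5p (6720427I07Rik): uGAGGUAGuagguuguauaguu
let-7d-5p (6720427I07Rik): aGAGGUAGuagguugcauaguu
let-7f-5p (6720427I07Rik): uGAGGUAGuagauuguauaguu
miR-101a-3p (E130102H24Rik): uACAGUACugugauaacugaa
miR-1839-5p (2900076A07Rik): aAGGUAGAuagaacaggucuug
miR-205-5p (4631405K08Rik): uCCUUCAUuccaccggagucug
miR-7a-5p: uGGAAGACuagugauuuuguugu
miR-294-3p: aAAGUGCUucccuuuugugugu

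The member 1700020I14Rik, at chr2:119594297-119607502 on the plus strand, is known as Cyrano and holds a long, conserved site for miR-7. In its longest transcript, of 8300 nt, the site lay at positions 2935 to 2959. Capitals mark the bases that pair with miR-7a-5p in a direct alignment, which are the seed match at the 3′ end and 13 of the 14 bases that face the end of the miRNA, with 3 further bases of the site before the seed match. The transcript held 2 matches to this seed in all.
1700020I14Rik, miR-7 site: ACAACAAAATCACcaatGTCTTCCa

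The seed of miR-294-3p is shared by 5 mature miRNAs of the miR-290 and miR-302 clusters. Its match, AGCACTT, is in capitals in 4 members whose values follow.
Lncpint: tcctgggttagtgggAGCACTTtgtgca
Gm10522: gaaccagttcggtacAGCACTTtggcta
D030068K23Rik: tcagccttcccggcaAGCACTTcccgac
Platr7: ggtggtgacaaagtcAGCACTTcccttt

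Library totals ranged from 1151649 to 4984833 counts, and 3 counts, used as the floor, came to between 0.602 and 2.60 CPM per library. The summed level of 10 stem cell markers was 3257 to 6211 CPM, while 9 primitive endoderm markers summed to 12.3 to 66.2 CPM (Lama1 and Lamb1 were the highest, and Gata6 was at 0 in 7 libraries) and 8 fibroblast markers to 2.87 to 23.4 CPM. The 6 trophoblast markers summed to 103.6 to 182.8 CPM, of which Tfap2c alone gave 96.5 to 173.0 CPM. In each fraction the KO and WT ranges of the primitive endoderm sum did not overlap, with 12.3 to 14.4 CPM in KO and 30.4 to 35.4 CPM in WT monosomes. The fibroblast sum was likewise lower in KO monosomes (2.87 to 9.52 against 10.4 to 13.1 CPM) and high polysomes (4.01 to 5.97 against 7.51 to 13.6 CPM), and the trophoblast sum in high polysomes. The stem cell sum was higher in KO monosomes (3682 to 4118 against 3442 to 3583 CPM) and lower in KO high polysomes (3257 to 3959 against 5659 to 6211 CPM). The part of these lists in the results was not tested. Dgcr8 itself kept 38 to 183 counts in the KO libraries, and its log2 difference between KO and WT was -0.56 for the monosome, -0.45 for the low and -1.01 for the high polysome fraction (limma adjusted p = 0.0185, 0.0223 and 0.000276). Reads of 3′ ends do not test a deletion elsewhere in the gene.

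Most members were scarce. Their mean level over the 6 groups, in CPM scaled by TMM factors, ran from 1.03 to 224.5 with a median of 3.91 CPM, against a median of 25.3 CPM over all genes tested. Of the 207 members, 47 reached a mean of 10 CPM and 81 stayed under 3 CPM, and the 10 most abundant members held 43.9% of the members' summed level. All members together took 0.406 to 0.439% of the counts in WT monosomes, 0.290 to 0.311% in WT low polysomes and 0.0823 to 0.0914% in WT high polysomes. The corresponding KO shares were 0.304 to 0.368%, 0.140 to 0.181% and 0.0433 to 0.0548%. The ranges of the 3 fractions did not overlap within a genotype, and the KO range lay below the WT range in each fraction. Fewer cells with a transcript and less of it per cell cannot be told apart in these bulk libraries. The limit of 3 CPM was met in exactly 3 libraries by 30 members, with mean levels of 1.05 to 2.23 CPM before TMM scaling, and was missed by 32 lincRNA genes with 2 such libraries, whose means reached 2.03 CPM. Of the members, 31 met it through WT libraries alone, 14 through KO libraries alone and 30 through monosome libraries alone.

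The deposited gene length of the members had a median of 1662 nt (359 to 16021), the longest transcript of 32 members was a single exon, and their longest reading frames had a median of 81 codons. By symbol or identifier, 155 members matched RefSeq, which lists 135 of them as lncRNAs, 14 as protein-coding and 6 as pseudogenes. Another gene on the same strand overlapped 37 members, whose counts are less certain since reads in more than 1 gene were not counted. None of the members was one of the ribosomal-RNA-like genes looked for.

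The 10 most abundant members were led by 1810058I24Rik, a gene listed as a lincRNA in GENCODE that is known to encode a small mitochondrial membrane protein. It lies at chr6:35252654-35263496 on the plus strand. Its levels were 404, 369.8 and 319 CPM in the 3 WT monosome libraries, 481, 405 and 399.8 in WT low polysomes and 83.1, 56.9 and 66.2 in WT high polysomes. In KO libraries they were 285, 317 and 278 CPM in monosomes, 142.9, 177 and 137 in low polysomes and 35.0, 41.0 and 43.9 in high polysomes. In both genotypes the high polysome libraries lay below all others, and in low polysomes every KO library lay below every WT library. The fall in KO low polysomes was -1.50 (SE 0.13, adjusted p = 3.95e-13) on the log2 scale in limma, while the difference in monosomes was -0.31 (SE 0.13, adjusted p = 0.0547). The first ATG of its longest transcript, of 2521 nt, opens the following frame of 47 codons at positions 115 to 258, with start and stop codons in capitals.
1810058I24Rik, first frame: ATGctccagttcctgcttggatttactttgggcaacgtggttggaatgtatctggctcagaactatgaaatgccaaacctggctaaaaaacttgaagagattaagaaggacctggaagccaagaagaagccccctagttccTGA

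Next in level came Epb41l4aos, at chr18:33794892-33795986 on the plus strand, whose levels were 404, 467 and 568 CPM in WT monosomes, 119.5, 136 and 123 in WT low polysomes and 25.7, 30.3 and 25.2 in WT high polysomes. The KO levels were 136, 149 and 127 CPM, 52.3, 30.8 and 34.4 CPM and 20.8, 17.1 and 23.7 CPM in the same order. KO and WT libraries did not overlap in any fraction, yet the gap narrowed from monosomes to high polysomes. Gm31659, at chr8:95808552-95818274 on the minus strand, had 77.7, 83.9 and 55.7 CPM in WT monosomes and 248, 227 and 262 CPM in KO monosomes. Its low polysome levels were 147, 164 and 157 CPM in WT and 112, 169 and 127 CPM in KO, so the genotypes overlapped there and stood apart in monosomes.

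The other 7 of these 10 were Platr10, AU020206, Tmem250-ps, 1700020I14Rik, 5430416N02Rik, Platr3 and Platr26. AU020206, a single-exon lincRNA, was at like levels in monosomes and low polysomes, with 143.1 ± 20.01 CPM in monosomes, 159 ± 21.6 CPM in low polysomes and 50.9 ± 7.28 CPM in high polysomes of WT cells (mean ± SD, n = 3). Its KO low polysome level was 157 ± 33.5 CPM, and the genotypes overlapped in that fraction. Cyrano (1700020I14Rik), with the miR-7 site shown above, had 126, 127 and 163 CPM in WT monosomes and 83.4, 98.2 and 81.9 CPM in KO monosomes. Its difference there was -0.64 (SE 0.14, adjusted p = 0.000297) on the log2 scale, under the 2-fold limit used for a call, and its low and high polysome differences were -0.06 and 0.08 (limma adjusted p = 0.756 and 0.746). 5430416N02Rik fell in all 3 fractions of KO cells, from 152 ± 35.3 CPM to 50.0 ± 3.45 CPM in monosomes. Its log2 differences were -1.56, -1.22 and -1.16 in monosomes, low and high polysomes (limma adjusted p = 1.27e-10, 7.85e-07 and 0.00615).

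**Figure D1:**
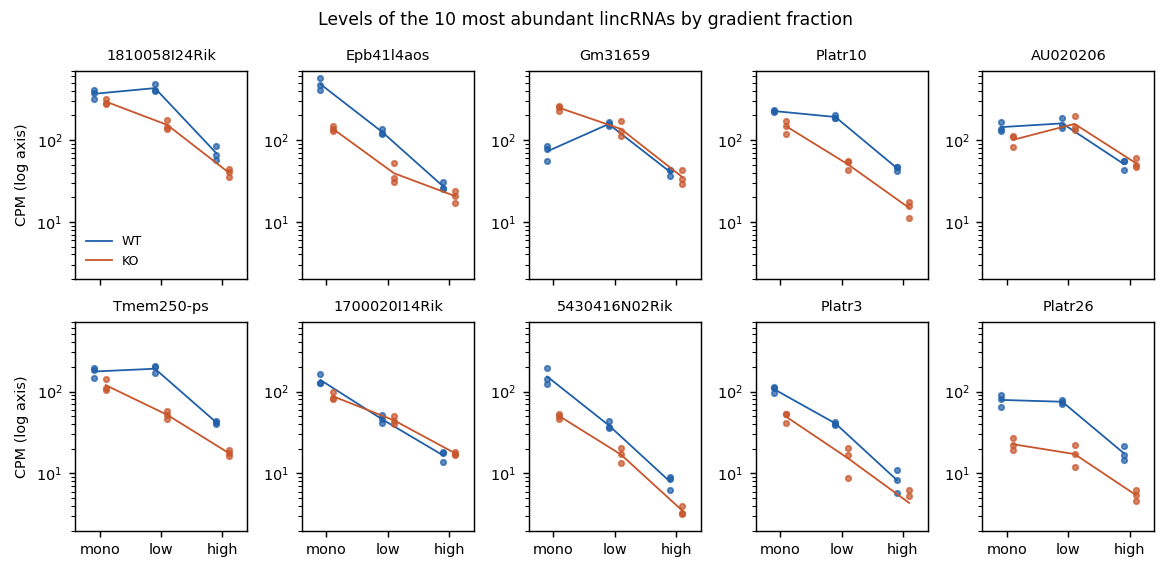
Levels of the 10 most abundant lincRNAs in CPM (log axis) in the monosome, low polysome and high polysome fraction, 1 panel per gene, with each point 1 library of WT or KO cells. High polysome libraries lie below monosome libraries of the same genotype in every panel, and Gm31659 is the one whose KO monosome libraries (227 to 262 CPM) lie above the WT ones (55.7 to 83.9 CPM).

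The first comparison asks where in the gradient the members lay. Most took a larger share of the monosome than of the high polysome libraries, in both genotypes. Levels were scaled within each library, so ratios and peak fractions compare shares of each fraction's RNA. How much of a transcript's RNA lay in each fraction was not measured. In WT cells the high polysome to monosome ratio was lower than 1 by the call used throughout (limma adjusted p under 0.05 and a change of over 2-fold) for 160 of the 207 members, against 19.3% of all genes tested, and higher for 1 member, against 10.7% of all genes. In KO cells it was lower for 167 members, against 25.5% of all genes, and higher for 2, against 17.5%. The median log2 ratio of the members was -2.23 in WT and -2.84 in KO, while over all genes it was -0.01 and -0.07. With genes that had a group at 0 set at their bound, the member medians were -2.24 and -2.83. Per gradient, log2 ratios were taken with a prior count of 2, on which values of genes with few counts depend. Their median was -1.81, -1.79 and -1.86 in the 3 WT gradients and -1.95, -2.08 and -2.09 in the 3 KO gradients, which did not overlap. The monosome libraries held 1151649 to 1578231 counts in WT and 1707918 to 2436888 in KO. The part of depth in this gap was not tested.

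A member that passed the limit through its monosome libraries alone could hardly lie on the other side. Among the 140 members that met it without the monosome libraries, 109 were called lower in WT (17% of all genes of that kind) and 1 higher (11.4%), and in KO 111 were called lower (23.3%) and 2 higher (18.6%). The ratio was called lower in both genotypes for 139 of the 207 members (67.1%, against 15.2% of all genes) and called in neither for 17 (8.21%, against 48.5%). The fraction with the highest mean level was the monosome for 155 members in WT and 182 in KO, the low polysome for 50 and 23, and the high polysome for 2 in each, while 37.7% of all genes peaked in WT high polysomes. The 266 tested lncRNA genes of other types (antisense, processed transcript, sense intronic and bidirectional) had median log2 ratios of -2.55 in WT and -2.79 in KO, near those of the members. The 15 lincRNA genes set apart by the rule lay lower, at -4.04 and -3.71, and the 11766 protein-coding genes lay at 0.07 and 0.03. Per gradient, the genotypes overlapped for the 266 genes of other types. Their medians were -2.10, -1.97 and -1.85 in WT and -2.01, -2.08 and -1.96 in KO.

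**Figure D2:**
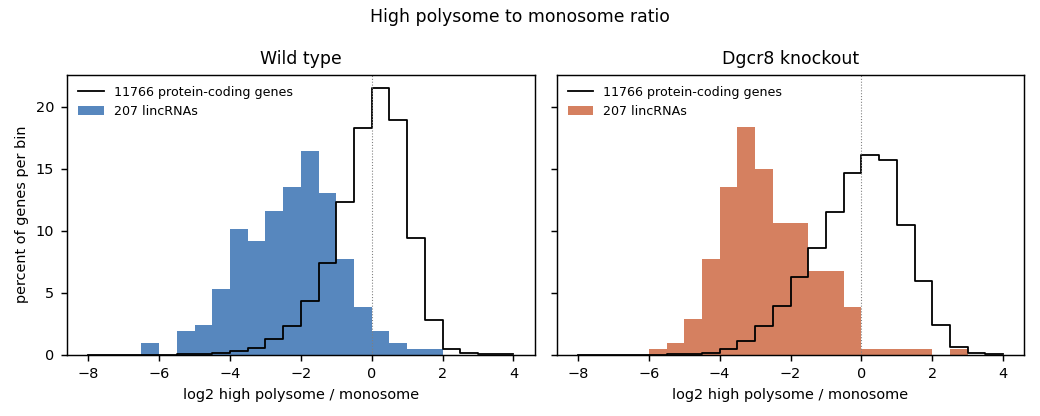
Distribution of the fitted log2 high polysome to monosome ratio in WT (left) and KO (right), as a percent of genes per bin, for the 207 members (bars) and the 11766 protein-coding genes (line). The members centre on -2.23 in WT and -2.84 in KO, left of the protein-coding genes at 0.07 and 0.03.

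The 3 members lowest on the monosome side, among those with a mean count of 20 or more, were Gm37584, 2700038G22Rik and AI480526. Gm37584, a single-exon gene at chr3:88526066-88527355 on the minus strand, had 50.9, 49.7 and 81.3 CPM in WT monosomes and 0.390, 0.721 and 0.955 CPM in WT high polysomes, a log2 ratio of -6.10 (SE 0.59, adjusted p = 1.76e-11) in limma. The KO levels were 30.0, 45.4 and 39.2 and 0.661, 1.24 and 0.689 CPM, a log2 ratio of -5.32. 2700038G22Rik had log2 ratios of -6.01 in WT and -5.15 in KO, and AI480526 had -5.24 and -4.02. AI480526 starts 527 bp from the start of the histone methyltransferase gene Setd1b on the other strand, and overlaps Gm26745 on its own. In each of these 3 members the monosome and high polysome libraries of a genotype did not overlap.

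No member with a mean count of 20 or more was on the high polysome side in both genotypes. The one member called there in both was Gm44053, named after its values were seen, with 4, 3 and 3 counts in WT high polysomes, none in WT monosomes and 5, 3 and 9 counts in KO high polysomes. Its pooled KO counts of 17 in high polysomes and 2 in monosomes gave a 4.68-fold ratio, with an exact 95% interval from 1.11 to 41.8. The WT call of Gm44053 was lost without any 1 of the 3 WT gradients (limma adjusted p up to 0.173), and its KO call without the KO gradient 1 or 3 (up to 0.139). Gm28875, also named after its values were seen, starts 3244 bp past the 3′ end of Syne3 on the same strand. Its KO counts were 0, 6 and 2 in monosomes and 17, 16 and 27 in high polysomes. Its log2 ratio in KO was 2.59 (SE 0.62, adjusted p = 0.000368) in limma. Syne3 was also called on the high polysome side in KO, with a log2 ratio of 1.43 (limma adjusted p = 0.00133). In high polysomes Syne3 was higher in KO than in WT by 1.79 (limma adjusted p = 0.00014). Among the 17 members with no called ratio in either genotype, those with the most counts were Gm42595, BC002059 and Gm37494 (named for that). BC002059 had 12.1, 23.2 and 13.3 CPM in WT monosomes and 7.02, 18.7 and 12.7 in WT high polysomes, which overlap, and holds a reading frame of 410 codons. Gm37494, which RefSeq lists as protein-coding, has the longest frame of the members, with 918 codons.

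A longer reading frame went only slightly with a higher ratio. Across members, Spearman's rho between frame length and the log2 ratio was 0.16 in WT and 0.11 in KO. Between the deposited gene length and the ratio it was 0.05 in each. These are descriptions across 207 genes measured in the same libraries. The 20 members with a frame of 150 codons or more had a median log2 ratio of -1.90 in WT and -1.84 in KO, and the 187 others -2.31 and -2.88.

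The second comparison, KO against WT within a fraction, asks which members changed with loss of DGCR8. More members fell than rose. In monosomes 47 members were lower in KO (9.63% of all genes tested were) and 17 higher (8.43%). In low polysomes 95 were lower (13.6%) and 13 higher (11.4%), and in high polysomes 60 were lower (17.9%) and 13 higher (15.1%). Without the WT gradient 1, the higher calls came to 11 in monosomes and 8 in high polysomes. The share of members that were lower thus stood above the background most in low polysomes, where the median log2 difference of the members was -0.93, against 0.00 over all genes. The medians were -0.47 in monosomes and -0.77 in high polysomes, against -0.05 and -0.08 over all genes. With genes at 0 in a group set at their bound, these member medians were -0.47, -0.97 and -0.89 in monosomes, low and high polysomes. Of the 207 members, 131 (63.3%) were called in at least 1 fraction, against 43.8% of all genes, and none was called in opposite directions in different fractions. A fall in KO was not limited to the members. For the 266 lncRNA genes of other types the median log2 difference was -0.34 for the monosome, -0.75 for the low polysome and -0.66 for the high polysome fraction. Of those 266 genes, 58, 98 and 64 were called lower and 11, 9 and 11 higher, in the same order. Their lower calls were thus also most frequent in low polysomes.

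Because more members passed the limit through WT than through KO libraries, the 110 members that met it within each genotype were counted as well. In monosomes 18 of them were lower (7.14% of all genes of that kind) and 8 higher (7.89%). Low polysomes had 49 lower (11.1%) and 4 higher (10.5%), and high polysomes 30 lower (16.3%) and 9 higher (14.8%).

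The same direction in all 3 fractions was called for 25 lower members (12.1%, against 4.44% of all genes) and 6 higher ones (2.90%, against 5.49%). Of these, 12 of the 25 met the limit of 3 CPM through WT libraries alone and 2 of the 6 through KO libraries alone. Among the 110 members that met it within each genotype, 8 were lower (7.27%, against 3.04% of all genes of that kind) and 4 higher (3.64%, against 5.05%). The 3 comparisons use separate libraries, but the fractions of a gradient come from the same lysate.

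**Figure D3:**
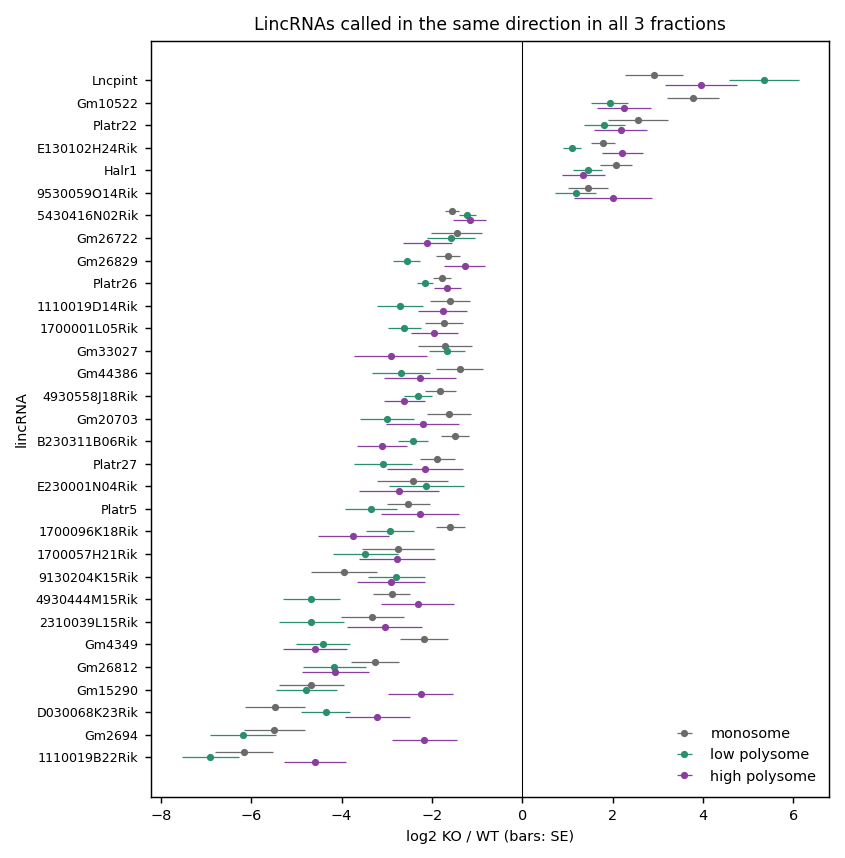
Log2 difference between KO and WT in each fraction, with SE bars, for the 31 lincRNAs called in the same direction in all 3 fractions, 1 row per gene. 6 lincRNAs lie to the right of 0 and 25 to the left, and 1110019B22Rik is the farthest left, where fitted values of genes at or near 0 counts depend on the prior count.

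Lncpint, a p53-induced lincRNA, rose the most on average. Like Gm10522, it met the limit of 3 CPM through KO libraries alone, a selection that its p-values take no account of. It lies at chr6:31082565-31220488 on the minus strand and overlaps 5330406M23Rik, Gm13835 and Gm37728 on that strand. It had 2 counts in each WT monosome library and 19, 38 and 36 counts in the KO ones, and in low polysomes 4, 0 and 0 counts in WT against 32, 53 and 50 in KO. The KO levels were 9.84, 16.98 and 13.1 CPM in low polysomes. Every KO library was above every WT library in all 3 fractions. The log2 difference was 2.91 (SE 0.64, adjusted p = 0.000357) in monosomes in limma, and in high polysomes the pooled counts of 66 in KO and 2 in WT gave a 22.6-fold ratio, with an exact 95% interval from 6.01 to 190.5 that covers counting error only.

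Gm10522, at chr1:170981944-170986466 on the plus strand, had 2.01, 0.645 and 1.77 CPM in WT monosomes and 20.6, 22.9 and 24.7 CPM in KO monosomes, a log2 difference of 3.78 (SE 0.57, adjusted p = 9.82e-07) in limma. Its high polysome levels were 0.780, 0.721 and 0.637 CPM in WT and 2.31, 6.21 and 4.37 CPM in KO. The genotypes did not overlap in either fraction. Halr1, which lies beside the HoxA cluster, had 5.36, 5.81 and 10.6 CPM in WT monosomes and 20.6, 34.9 and 32.1 CPM in KO monosomes. Its monosome libraries did not overlap either, and the log2 difference was 2.07 (SE 0.35, adjusted p = 1.04e-05) in limma. In high polysomes its log2 difference of 1.35 lost its call without the WT gradient 3 (limma adjusted p = 0.0642).

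E130102H24Rik, which holds the gene of miR-101a, was also higher in all 3 fractions. Its monosome levels were 12.7, 7.10 and 19.5 CPM in WT and 36.1, 49.7 and 37.2 CPM in KO. In high polysomes they were 1.56, 1.44 and 1.91 CPM in WT and 8.93, 8.39 and 7.81 CPM in KO. The genotypes stood apart in both fractions, with log2 differences of 1.79 (SE 0.27, adjusted p = 1.29e-06) and 2.22 (SE 0.46, adjusted p = 6.57e-05) in limma. In low polysomes the log2 difference was 1.10, and it came to 0.97, under the fold limit, without the WT gradient 2. Platr22 is described with its family, and the sixth member higher in all 3 fractions was 9530059O14Rik.

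At the other end, 1110019B22Rik was nearly absent from the 3 fractions of KO cells. It lies at chr10:95719133-95722500 on the minus strand and had 31, 34 and 28 counts in WT monosomes, 52, 60 and 59 in WT low polysomes and 6, 13 and 10 in WT high polysomes. The KO libraries held 1 count in all, in a monosome library. Against the floor of 3 counts over the group, the KO level was at least 60.7-fold lower in low polysomes and at least 14.1-fold lower in high polysomes. In monosomes the ratio of pooled counts was 143.4-fold, with an exact 95% interval from 25.1 to 5725.

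Gm2694, at chr8:87460469-87525554 on the plus strand, overlaps Gm19872 on the same strand. Its levels were 43.5, 36.1 and 27.4 CPM in WT monosomes and 0, 2.33 and 0.392 CPM in KO monosomes. In low polysomes WT cells had 58, 40 and 55 counts and KO cells 1 count in all, a 163-fold ratio with an exact 95% interval from 28.8 to 6472. Every WT library was above every KO library in all 3 fractions. D030068K23Rik, which holds a miR-294 seed match and a frame of 166 codons, had 12.3, 15.9 and 14.1 CPM in WT low polysomes and 0.307, 0.641 and 0.788 CPM in KO low polysomes. Its log2 difference there was -4.35 (SE 0.54, adjusted p = 9.23e-09) in limma. The seed match thus occurs in members that rose and in members that fell.

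Gm15290 and Gm26812 complete the 5 that fell the most, and each overlaps another gene on its strand, Gm49496 and Gm20388. Gm15290 had 14, 21 and 21 counts in WT low polysomes and 1, 0 and 0 in KO low polysomes, and none in KO monosomes, where it was at least 11.3-fold lower. Gm26812 had 10.7, 14.2 and 11.5 CPM in WT monosomes and 2.22, 0.388 and 1.57 CPM in KO monosomes, and no count in KO high polysomes, where it was at least 10.2-fold lower. All 5 of these members met the limit through WT libraries alone, and their p-values take no account of this selection. Of the 6 that rose, Lncpint and Gm10522 met the limit through KO libraries alone, and the same holds for them.

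The third comparison asks whether the high polysome to monosome ratio itself differed between genotypes, by the interaction of genotype and fraction. It did for 24 members, higher in KO for 8 (3.86% of the members, against 6.29% of all genes tested) and lower for 16 (7.73%, against 8.81%). The 8 higher came to 4 without the WT gradient 2 or 3 and to 5 without the KO gradient 3. Scaling by total counts in place of TMM factors, which moves the median of all genes by -0.33 in this contrast, gave 6 higher and 29 lower. In 7 of the 24 at least 1 of the 4 groups held 3 counts or fewer, so that the ratio had little behind it in 1 genotype, and the other 17 split into 5 higher and 12 lower. With a mean count of 20 or more there were 2 higher and 8 lower. No share of all genes was taken under that scaling or these count limits. These splits therefore only describe the members.

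**Figure D4:**
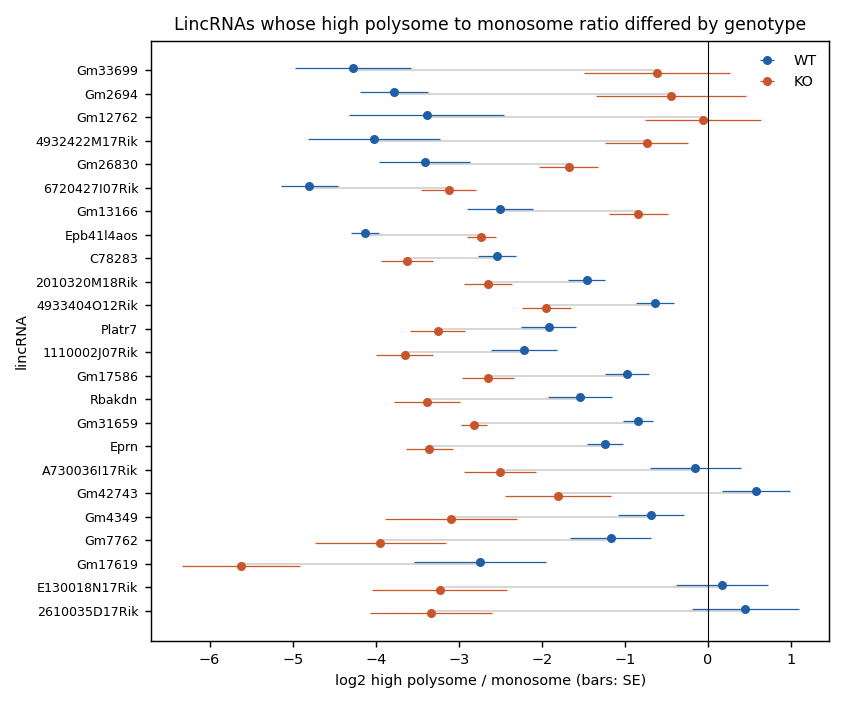
Log2 high polysome to monosome ratio in WT and in KO, with SE bars, for the 24 lincRNAs whose ratio differed between genotypes, 1 row per gene. In 8 rows the KO point lies to the right of the WT point (Epb41l4aos at -2.73 against -4.13) and in 16 to the left (Gm31659 at -2.81 against -0.84).

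Epb41l4aos had the better measured of the 2 higher ratios, with a log2 ratio of -4.13 in WT and -2.73 in KO and a difference of 1.40 (SE 0.25, adjusted p = 3.24e-05) in limma. It was lower in KO in monosomes (-1.79, adjusted p = 1.61e-13), whereas in high polysomes its log2 difference was -0.39 (SE 0.21, adjusted p = 0.1). 6720427I07Rik, the member that holds let-7a, let-7d and let-7f and overlaps Gm37238, had 85.7, 109 and 121 CPM in WT monosomes and 33.9, 36.1 and 25.1 CPM in KO monosomes. Its high polysome levels were 3.12, 5.77 and 2.55 CPM in WT and 2.98, 4.35 and 3.22 CPM in KO. The genotypes thus stood apart in monosomes and overlapped in high polysomes. The ratio differed by 1.68 (SE 0.48, adjusted p = 0.00658), and without the WT gradient 3 it differed by 1.31 with an adjusted p of 0.0653, above the threshold.

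Lower ratios in KO were found for Eprn, Gm31659 and Gm17586. Eprn, a lincRNA expressed as ESCs leave the naive state, lies at chr13:73344665-73347384 on the minus strand. Its levels were 32.1, 38.1 and 37.1 CPM in WT monosomes and 51.7, 34.9 and 39.6 CPM in KO monosomes, which overlap. In high polysomes they were 12.9, 15.9 and 16.2 CPM in WT and 4.96, 2.80 and 4.14 CPM in KO, which do not. The log2 ratio went from -1.24 to -3.35, a difference of -2.11 (SE 0.36, adjusted p = 1.70e-05) in limma.

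In Gm31659 the difference came with the monosomes. Its monosome level was 1.75 (SE 0.16, adjusted p = 1.94e-11) higher in KO on the log2 scale, while its high polysome libraries of 42.9, 43.2 and 36.0 CPM in WT and 29.1, 42.9 and 33.6 CPM in KO overlapped. The ratio differed by -1.97 (SE 0.24, adjusted p = 4.55e-08). Gm17586 starts 168 bp from the start of Mafg on the other strand. It had 18.8 ± 1.61 CPM in WT monosomes and 21.5 ± 3.07 CPM in KO monosomes, which overlap. Its high polysome levels were 10.1, 10.8 and 8.28 CPM in WT and 4.30, 2.80 and 2.99 CPM in KO, which did not overlap, and its ratio differed by -1.67 (SE 0.41, adjusted p = 0.00179).

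Among known groups, the Platr genes (pluripotency-associated transcripts, named for expression in ESCs) had 11 members out of 30 genes in the table. In KO monosomes 5 of the 11 were lower (9.63% of all genes were) and 1 higher (8.43%), in low polysomes 6 (13.6%) and 1 (11.4%), and in high polysomes 4 (17.9%) and 1 (15.1%). Of all 207 members, 22.7%, 45.9% and 29.0% were lower in the same order, and 8.21%, 6.28% and 6.28% higher. The median log2 differences of the 11 were -0.63, -1.47 and -0.93. For 9 of the 11, the ratio of high polysomes to monosomes was called lower in both genotypes (67.1% of all members and 15.2% of all genes were). That of Platr22 (log2 ratio -0.41 in WT and -0.79 in KO) and of Platr28 (-0.64 and -0.87) passed the call in neither. Platr26, at chr2:71719417-71730966 on the plus strand, had 75.5, 78.7 and 71.0 CPM in WT low polysomes and 11.99, 22.4 and 17.3 CPM in KO low polysomes. Its genotypes did not overlap in any fraction, and the log2 difference in low polysomes was -2.16 (SE 0.18, adjusted p = 3.59e-13) in limma. Platr10, the most abundant, had 187, 186 and 199 CPM in WT low polysomes and 42.7, 53.8 and 54.9 CPM in KO low polysomes, a log2 difference of -1.92 (SE 0.14, adjusted p = 3.39e-15).

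Platr22 was the exception that rose. Its monosome levels were 3.35, 1.29 and 1.77 CPM in WT and 6.67, 20.6 and 15.3 CPM in KO. In low polysomes they were 2.47, 3.91 and 2.71 CPM in WT and 8.30, 17.9 and 9.46 CPM in KO. The genotypes did not overlap in any of the 3 fractions, and the KO gradient 1 was the lowest of the 3 throughout. Platr7, which holds a miR-294 seed match, had 15.4, 28.4 and 18.6 CPM in WT monosomes and 27.8, 37.7 and 31.7 CPM in KO monosomes, which overlap. Its ratio was lower in KO by -1.34 (SE 0.47, adjusted p = 0.0285), a call that was lost without the WT gradient 1, the KO gradient 2 or the KO gradient 3 (limma adjusted p up to 0.227). Platr5 and Platr27, at 0 counts in 2 KO high polysome libraries each, lost their high polysome calls without any of several gradients (adjusted p up to 0.106 and 0.103), and the KO calls of Platr11, with 0 to 14 counts per library, were lost as well (up to 0.118).

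**Figure D5:**
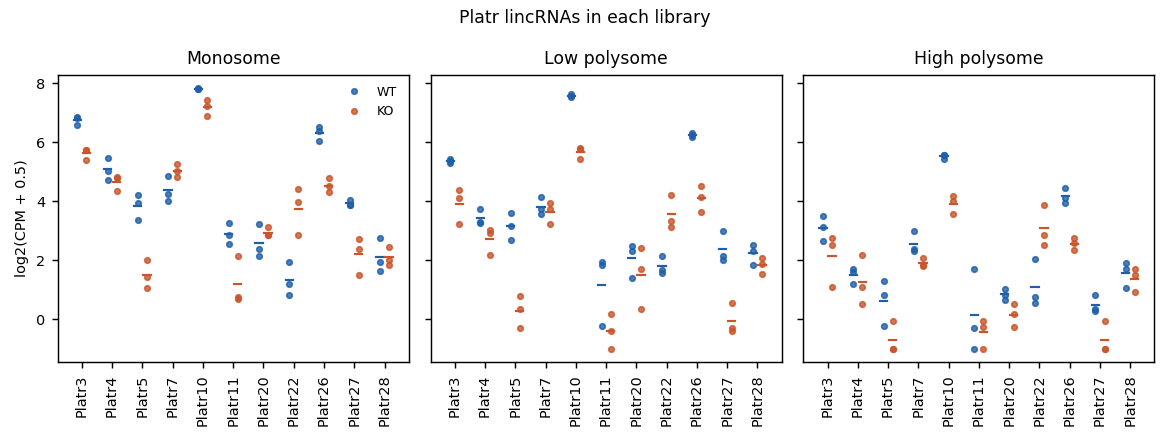
Level of the 11 Platr lincRNAs as log2(CPM + 0.5) in each library, 1 panel per fraction, WT and KO points side by side. KO points of Platr26 and Platr10 lie below the WT points in low polysomes, and those of Platr22 lie above them in all 3 panels.

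Of a list of 25 names of other well-known long noncoding RNAs, 14 matched a GENCODE lincRNA gene, and 8 of these were members. Of 4 genes of the X inactivation centre or the X chromosome (Xist, Jpx, Ftx and Firre) none was. Firre reached 3 CPM in all 18 libraries, but GENCODE types it as a processed transcript. Xist, Jpx and Ftx missed the limit. Besides Lncpint, Halr1, Epb41l4aos and 1700020I14Rik, the members from the list of 25 were Pvt1, Bvht, Trp53cor1 and 2610035D17Rik. Pvt1, the neighbour of Myc, which overlaps 4 small genes on its strand, had 16.5 ± 4.80 CPM in WT monosomes and 11.3 ± 1.30 CPM in KO monosomes, and passed the call in no KO comparison. Its log2 ratio was -3.27 in WT and -2.74 in KO. Bvht, known from the cardiac lineage, had 28.6, 29.3 and 28.3 CPM in WT low polysomes and 8.61, 10.3 and 11.3 CPM in KO low polysomes, which do not overlap, a log2 difference of -1.50 (SE 0.22, adjusted p = 3.35e-07) in limma.

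Trp53cor1, the p53-induced lincRNA-p21, had 8.81, 7.25 and 7.53 CPM in WT low polysomes and 3.07, 3.85 and 4.20 CPM in KO low polysomes. Lncpint, the other p53-induced member, rose. The log2 difference of Trp53cor1 was -1.04 (SE 0.35, adjusted p = 0.0126) in low polysomes, and fell to 0.92 in size, under the fold limit, at the lowest when 1 gradient was left out. 2610035D17Rik, which lies in the region of Sox9, had 6, 5 and 7 counts in WT high polysomes and 1, 0 and 1 counts in KO high polysomes. Its ratio of pooled counts there was 13.1-fold, with an exact 95% interval from 3.15 to 116.8.

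The 14 members that RefSeq lists as protein-coding did not lie on the polysome side. Their ratio was called lower in 10 of 14 in WT and 11 of 14 in KO and higher in none, with median log2 ratios of -1.65 and -2.57. In WT and KO the ratio was called lower for 77.3% and 80.7% of all members, and for 19.3% and 25.5% of all genes. In KO cells none passed the call in monosomes, and none was higher in any fraction. In low polysomes 7 were lower (45.9% of all members and 13.6% of all genes were), and in high polysomes 6 (29.0% and 17.9%). Tmem250-ps, a gene with a frame of 170 codons despite its pseudogene symbol, had 199.9, 203 and 167 CPM in WT low polysomes and 58.1, 51.3 and 46.5 CPM in KO low polysomes. The libraries did not overlap, and the log2 difference was -1.87 (SE 0.14, adjusted p = 6.35e-15) in limma. Gm32856 fell in low polysomes by 1.15 and in high polysomes by 1.95 on the log2 scale (adjusted p = 0.00148 and 0.0017), and Gm39469 fell in low polysomes by 2.41 (adjusted p = 5.95e-05). Gm37494 and D930016D06Rik passed the call in no comparison, and the levels of D930016D06Rik peaked in low polysomes, at 4.74 ± 1.08 CPM in WT and 7.40 ± 1.58 CPM in KO.

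The 9 members with a miRNA gene inside changed in both directions or in none. In monosomes 2 were higher and 2 lower in KO (8.43% and 9.63% of all genes), in low polysomes 1 and 3 (11.4% and 13.6%), and in high polysomes 1 and 1 (15.1% and 17.9%). The 2 higher in monosomes were E130102H24Rik and 6030443J06Rik, a gene that overlaps Lhfpl3 on its strand and whose levels were 1.34, 0.645 and 0.884 CPM in WT and 7.78, 4.27 and 4.31 CPM in KO. That second call was lost without the WT gradient 1 or 2 (limma adjusted p up to 0.0799). The 2 lower were 6720427I07Rik and Gm4675. 4631405K08Rik, with the miR-205 gene, had 3, 1 and 6 counts in WT monosomes and 4, 17 and 21 counts in KO monosomes, which overlap. 2900076A07Rik, with the miR-1839 gene, had 9.59 ± 2.25 CPM in the monosomes of WT and 10.2 ± 2.62 CPM in those of KO. The others were Smkr-ps, Gm21814, Gm37245 and Gm4675, with mean levels of 1.92 to 2.77 CPM over the groups.

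Members with a match to the miR-294 seed were compared with those without. A match AGCACTT lay in an annotated transcript of 38 members, and 137 had not even the shorter match GCACTT, which overlaps it, on the transcript strand. The median log2 difference between KO and WT was 0.08 against -0.55 in monosomes. It was -0.17 against -1.17 in low polysomes and -0.53 against -0.93 in high polysomes. For the 70 members with GCACTT, which include the 38, the medians were -0.17, -0.43 and -0.66 in the same order. Gene length and the number of annotated transcripts were not compared between these sets. In monosomes 6 of the 38 with a match were higher and 7 lower, against 11 and 34 of the 137 without (8.43% and 9.63% of all genes). In low polysomes 4 and 10 were, against 9 and 72 (11.4% and 13.6% of all genes), and in high polysomes 5 and 9, against 8 and 42 (15.1% and 17.9%). Single-exon members also lay higher, with median log2 differences of -0.03, -0.09 and 0.11 in monosomes, low and high polysomes for 32 members, against -0.52, -1.10 and -0.93 for the 175 others. These are medians over members chosen by level, given with no test.

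Position beside a protein-coding gene was taken from the annotation. A start within 2000 bp of that of a protein-coding gene on the other strand was found for 33 members, of which 31 had a tested partner. In WT their median log2 ratio was -2.20, and that of the partners was 0.33. In low polysomes 13 of the 31 members and 6 of the partners were called in KO. Of all genes, 11.4% were called higher and 13.6% lower there, and of all 207 members 6.28% and 45.9%. Both were called in the same direction in 1 pair and in opposite directions in 2 pairs. A start within 5000 bp past the end of a protein-coding gene on the same strand was found for 18 members, of which 16 had a tested neighbour. In low polysomes 8 of these 16 members and 4 of the neighbours were called. Both were called in the same direction in 2 of the 16 pairs and in opposite directions in none. The joint calls of either kind of pair are too few to be read as a pattern. In low polysomes Pearson's r of the log2 differences was 0.51 across the 16 pairs, against 0.01 across the 31 pairs on opposite strands. It was 0.54 against -0.07 in monosomes and 0.52 against 0.28 in high polysomes, while for the change of the ratio the order was the other way, at 0.21 against 0.37. All were measured in the same libraries and are given with no test. Reads past the annotated end of the upstream gene would be counted in such a member, and their part was not tested.

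RefSeq promoters (300 bases, most of them before the start, GRCm38.p6) were held for 129 members, for 16 of the 25 lower in all 3 fractions and for all 6 of those higher. The median number of CG dinucleotides was 9 over the members, 7.5 over the 16 and 13 over the 6, against 7 over 27025 promoters. On either strand, an E box (CACGTG) lay in 12.4% of member promoters, 18.8% of the 16 and 33.3% of the 6, against 7.09% of all promoters. A GC box (GGGCGG) lay in 38.0%, 43.8% and 66.7%, against 35.6%, and a TATA box (TATAAA) in 13.2%, 6.25% and 0%, against 14.1%. With 6 and 16 promoters these are descriptions. The promoters of the member that rose the most on average and of Gm2694, which fell, are printed because they differ in CG content, with CG in capitals. RefSeq starts Gm2694 and Lncpint inside the spans that GENCODE gives them. Gm2694 has 42 CG, a GC box and an E box in chr8:87472866-87473165 on the plus strand, and Lncpint 18 CG and an E box in chr6:31218425-31218724 on the minus strand.
Gm2694 promoter: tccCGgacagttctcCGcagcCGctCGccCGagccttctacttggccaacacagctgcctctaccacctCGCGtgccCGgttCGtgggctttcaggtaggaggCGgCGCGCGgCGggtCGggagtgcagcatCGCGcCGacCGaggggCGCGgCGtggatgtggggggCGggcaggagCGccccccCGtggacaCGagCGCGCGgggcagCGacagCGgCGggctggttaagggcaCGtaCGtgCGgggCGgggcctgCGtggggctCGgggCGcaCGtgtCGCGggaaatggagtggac
Lncpint promoter: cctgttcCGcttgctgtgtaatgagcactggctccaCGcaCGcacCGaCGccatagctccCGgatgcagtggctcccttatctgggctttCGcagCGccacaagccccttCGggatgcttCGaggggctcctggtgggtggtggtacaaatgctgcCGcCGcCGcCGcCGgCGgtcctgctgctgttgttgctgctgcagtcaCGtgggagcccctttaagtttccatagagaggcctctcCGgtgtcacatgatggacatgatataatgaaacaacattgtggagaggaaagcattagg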

How the data were processed

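The 18 libraries were 3 gradients of each genotype by 3 fractions. The authors deposited unnormalised counts for each gene. They were obtained from 3′ end reads by trimming with Cutadapt 1.14, alignment to mm10 with STAR 2.5.3a, keeping reads that aligned once, and strand-specific counting with featureCounts 1.5.3 over the GENCODE M14 basic annotation, without ribosomal RNA and with spike-in sequences (tool names and versions from the submitters' processing notes). Gene lengths in the same table served only as an annotation. Molecular identifiers are not mentioned in the sources used here. PCR copies may therefore count as reads, and all intervals cover counting error only. A 3′ count does not grow with transcript length.

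The 92 spike-in entries were left out. Symbols, gene types and positions came from GENCODE M21 (GRCm38), which matched 51274 of 51467 genes. The 12851 genes that reached 3 CPM in 3 or more libraries were scaled with TMM factors (edgeR 4.0.16) and fitted with limma-voom (limma 3.58.1, R 4.3.3), with 6 group means over 18 libraries, no block and two-sided tests whose p-values were adjusted by Benjamini-Hochberg across the 12851. Calls needed both an adjusted p below 0.05 and a log2 difference beyond 1 in size. Voom and TMM scaling were choices made here. The scripts were tested on simulated counts. Printed CPM are TMM-scaled, and the limit of 3 CPM used plain totals. A group at 0 counts was set to 3 counts over the group for a bound. Alternatives were edgeR's quasi-likelihood test, DESeq2 1.42.0, other scalings and filters, a replicate block and leaving out each gradient.

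The members and lists were chosen with earlier results of these data known. Members were named by this rule: the 10 with the highest mean level, the 5 higher and 5 lower with the largest mean change among those called in all 3 fractions, up to 3 higher and 3 lower by interaction and up to 5 and 3 by ratio (mean count of 20 or more), the Platr, X-linked and known lists, members with a RefSeq protein entry (6 named) and members with a miRNA gene inside. Others are said to be named after their values were seen.

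In the labels a replicate number within a genotype marks the fractions of 1 gradient. Deviations of such libraries from their group means correlated at 0.032 to 0.135 (median 0.062), and those of different gradients at a median of -0.029. A WT and a KO gradient share only a number (0 to 0.102).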

Additional observations from a re-analysis of the deposited data

Results flagged for a closer look

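The high polysome to monosome ratio differed between KO and WT for 8 of the 48 named members. The call was by the interaction of genotype and fraction (limma adjusted p under 0.05 and over 1 on the log2 scale). Epb41l4aos, 6720427I07Rik, Eprn, Gm31659 and Gm17586 met the naming rule through this same call. The 8 can therefore not be weighed against a share of all genes. Over all 207 members, 3.86% were higher and 7.73% lower in KO, beside 6.29% and 8.81% of all genes tested. The ratio was higher in KO for Epb41l4aos by 1.40 (SE 0.25, adjusted p = 3.24e-05), for 6720427I07Rik by 1.68 (SE 0.48, adjusted p = 0.00658) and for Gm2694 by 3.33 (SE 0.99, adjusted p = 0.00974). It was lower for Gm31659, with a difference of -1.97 (SE 0.24, adjusted p = 4.55e-08), for Eprn with -2.11 (SE 0.36, adjusted p = 1.7e-05), for Gm17586 with -1.67 (SE 0.41, adjusted p = 0.00179), for Platr7 with -1.34 (SE 0.47, adjusted p = 0.0285) and for 2610035D17Rik with -3.78 (SE 0.97, adjusted p = 0.0028). The KO counts of Gm2694 were 0, 6 and 1 in monosomes and 1, 1 and 3 in high polysomes, and its call was lost without the KO gradient 3 (adjusted p = 0.112). That of 2610035D17Rik, with 1, 0 and 1 counts in KO high polysomes, was not made by DESeq2. The calls of 6720427I07Rik and Platr7 were each lost without at least 1 gradient, as given with their values.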

How the results depend on the processing

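Of 96 counts of members called (6 comparisons under 16 alternatives), 90 were within 1.5 times of those reported, and no call of a named member turned its direction. Filters moved the others by testing fewer members. Under a limit of 10 CPM in 3 libraries (87 members), 36, 51 and 45 were called in KO monosomes, low and high polysomes, and 77 and 78 for the high polysome to monosome ratio in WT and KO. A mean of 3 CPM or more (127 members) gave 112 for the ratio in KO. The 110 members past the limit within each genotype, an alternative chosen after seeing the data, as were the limit without monosomes and the members with no same-strand overlap (170), had 26, 53 and 39 calls in KO. With a replicate block, the calls were 66, 105, 80, 167, 170 and 24, against 64, 108, 73, 161, 169 and 24 without it (KO in monosomes, low and high polysomes, the ratio in WT and KO, and its change), of which 63, 105, 73, 161, 168 and 23 were shared, and it moved no count by over 1.5 times. Leaving out each gradient gave 57 to 66, 92 to 103, 61 to 74, 134 to 163, 152 to 170 and 17 to 24. DESeq2 gave 60, 100, 72, 155, 168 and 17 and edgeR 67, 105, 74, 159, 173 and 21. Total counts in place of TMM factors moved the median of all genes by 0.10 in KO monosomes, -0.22 in KO high polysomes, -0.25 for the ratio in KO and -0.33 for its change. Of 155 called results of named members, 121 could be tested under all 15 alternatives and 110 of these kept their call in each. The other 34 were not tested under 1 or both of the stricter filters, and 20 of them kept it wherever they were tested. Depth limits what is said of scarce members: a group at 0 counts left only a bound for 14 members between KO and WT in high polysomes, and for 4 and 13 members for the ratio in WT and KO.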
